A study of Mus musculus with 12 samples.

Results

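The genes described here encode the protein components of the 2 ribosomes of a mouse cell, the cytosolic ribosome and the mitochondrial ribosome. They were taken from a table of 49315 genes by their symbols: Rpl or Rps with a number, Rplp0 to Rplp2 and Rpsa for the cytosolic ribosome, and Mrpl or Mrps with a number for the mitochondrial one. Copies named -ps and the Rps6k kinases were left out. Of 166 matching genes, 158 had at least 200 counts over all libraries and are the members described below, 82 cytosolic and 76 mitochondrial, and all 158 also entered the test, which covered 20290 genes. The 8 genes under the minimum were Mrpl53 with 166 counts, Rpl6l with 114, Rps3a2 with 96, Rps3a3 with 95, Rpl3l with 47, Rpl39l with 12, and Rpl10l and Rps12l1 with none. Just inside it stood Rpl32l with 262 counts, Mrpl46 with 768 and Mrps28 with 834.

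The libraries came from brains of 12 male mice collected 14 d after stroke, in a model of clonal hematopoiesis, the outgrowth of blood cells from 1 mutant stem cell clone. All recipients were CD45.1 Tet2-sufficient mice aged 8 to 12 weeks, irradiated with the head shielded, and all received bone marrow of which 90% came from CD45.1 Tet2-sufficient donors. By title and genotype label, the remaining 10% came from CD45.2 Tet2-KO donors in 6 mice (Tet2-KO) and from CD45.2 Tet2+/+ donors in the other 6 (WT), so only part of the blood cells, and no brain cell of the host, carried the deletion. Stroke was an occlusion of the middle cerebral artery for 30 min, made 8 to 10 weeks after the transplant. The treatment label names control cells in all 12 samples, against the title and genotype of the Tet2-KO ones, and the groups here follow title and genotype. No library of a sham-operated brain was analysed here, so both groups are brains after stroke.

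The ribosome translates mRNA into protein. Its cytosolic form, built from a large and a small subunit, makes most proteins of the cell, while a separate ribosome inside mitochondria makes the few proteins encoded by mitochondrial DNA. Both sets of ribosomal proteins are encoded in the nucleus, and cytosolic ribosomal protein mRNAs typically begin with a run of pyrimidines at the cap, the terminal oligopyrimidine (TOP) motif, through which mTOR complex 1 and the binding protein Larp1 control how strongly they are translated. The mRNAs of mitochondrial ribosomal proteins are not classed as TOP mRNAs.

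Stretches near the annotated starts of members are shown because that motif is the best known feature the cytosolic genes share. RefSeq promoter windows of 300 bases, 250 before and 50 from the annotated start on, were found for 61 of the 82 cytosolic and 67 of the 76 mitochondrial members, and the first listed start of each gene was read. In the 30-base windows below (GRCm38.p6, 5′ to 3′), capitals mark the longest unbroken run of C and T that touches the 20 bases on either side of the annotated start. The windows are placed around that run, and the start base is not marked. The Rpl24 window begins after the annotated start, which is therefore not shown, and its run begins 16 bases after that start. The first 7 are cytosolic members with long runs. Rps9, Rpl27 and Rpl9 were among the members with the smallest p-values, Rpl24 was the only protein-coding cytosolic member without a lower level in Tet2-KO brains, and the last 3 are mitochondrial.
Rpl7a, chr2:26910788-26910817, plus strand: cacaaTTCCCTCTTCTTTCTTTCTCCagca
Rpl27a, chr7:109519186-109519215, plus strand: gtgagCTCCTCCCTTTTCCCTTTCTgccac
Rpl35, chr2:39005115-39005144, minus strand: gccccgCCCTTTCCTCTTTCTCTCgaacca
Rpl15, chr14:18270968-18270997, minus strand: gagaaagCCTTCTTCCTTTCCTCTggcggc
Rps18, chr17:33955648-33955677, minus strand: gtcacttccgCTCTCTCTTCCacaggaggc
Rps6, chr4:86857349-86857378, minus strand: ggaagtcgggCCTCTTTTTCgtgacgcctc
Rplp2, chr7:141447636-141447665, plus strand: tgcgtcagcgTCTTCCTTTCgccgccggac
Rps9, chr7:3704024-3704053, plus strand: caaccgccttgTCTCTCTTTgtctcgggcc
Rpl27, chr11:101442225-101442254, plus strand: ccggaacgctctgTTCCTgtctgctgctcg
Rpl9, chr5:65391422-65391451, minus strand: gcgacacgcagggCCCTgacggattacaag
Rpl24, chr16:55966277-55966306, plus strand: aaacagactgggcgCTCggaagtgacatca
Mrpl12, chr11:120484617-120484646, plus strand: cggacagctcgCCTCCTCCCggatagagcg
Mrpl52, chr14:54426906-54426935, plus strand: gcccacttccggTTCCCTTgctccggcatg
Mrps24, chr11:5707693-5707722, minus strand: tctgaggccccgCCTTCCTgcggctgcgca

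The run was 21 bases long in Rpl7a, 20 in Rpl27a and 18 in Rpl35. It was 9 in Mrpl12 and 7 in both Mrpl52 and Mrps24, which were not picked for long runs. Over all members with a window the median run was 7 bases in the cytosolic and 6 in the mitochondrial set. The longest was 21 in the cytosolic and 11 in the mitochondrial set. A run of at least 8 bases stood near the annotated start of 30 of the 61 cytosolic members (49.2%) and of 15 of the 67 mitochondrial members (22.4%), against 20.8% of all 27025 promoter windows and 20.1% of those of 12786 tested genes. The core letters CCGGAAG of the ETS family, which includes GABP, were found on either strand in 39.3% of cytosolic and 34.3% of mitochondrial windows, against 9.12% of all windows and 15.6% of those of tested genes. The NRF1 core GCGCATGC was in 3.28% of cytosolic and 11.9% of mitochondrial windows, against 2.8% of all windows and 4.76% of those of tested genes. The TATA letters TATAAA were in 11.5% of cytosolic and 5.97% of mitochondrial windows, against 14.2% and 7.65%, so for NRF1 and TATA the cytosolic share lay above one background and below the other. These are matches of letters around an annotated start, which may lie some bases from the start used in brain. The median log2 fold change, Tet2-KO over WT, was -0.16 in the 30 cytosolic members with such a run and -0.14 in the 31 without.

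Library totals ran from 12000261 to 15340787 counts in WT and from 12625047 to 21049763 in Tet2-KO brains. Neuronal, astrocyte and oligodendrocyte marker genes were abundant in all 12 libraries, as the tissue label says. WT mouse 2 stood apart: its summed neuronal markers were 2877 CPM (TMM-normalised read counts, scaled to a common library size) against 3802 to 4166 in the other WT mice, and its microglial markers 1378 against 783 to 873. Tet2-KO mouse 6 had 48350 CPM of mitochondrially encoded mRNA against 32767 to 36563 in the other Tet2-KO mice. Tet2 itself had 126 to 147 CPM in WT and 117 to 137 CPM in Tet2-KO brains, groups that overlapped, which in whole tissue of Tet2-sufficient hosts checks no label. The leading counts and the values that moved most are also given without WT mouse 2 and Tet2-KO mouse 6.

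Nearly all cytosolic ribosomal protein mRNAs had a slightly lower mean level in Tet2-KO than in WT brains, and the mitochondrial ones lay on both sides of 0. Of the 82 cytosolic members 79 had a negative log2 fold change (Tet2-KO over WT), with a median of -0.14, a difference of -9.46%. Of the 76 mitochondrial members 33 were negative and 43 positive, with a median of 0.011. Over all tested genes the median was 0.010, and 47.7% were negative. In bulk tissue, fewer cells of a type and less RNA per cell cannot be told apart.

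Log2 fold changes of members ran from -0.44 (Rps27l) to 0.62 (Rpl32l). No member passed an adjusted p of 0.05 in edgeR's quasi-likelihood test with Benjamini-Hochberg adjustment. The smallest edgeR adjusted p of a member was 0.111. That test called 5 of all 20290 genes, or 0.0246%, all lower in Tet2-KO. At an unadjusted p below 0.05, 38 cytosolic members (46.3%) were lower, against 12.2% of all tested genes, and 1 was higher, Rpl32l, against 10.8%. For the mitochondrial members the counts were 2 lower (2.63%) and 0 higher. DESeq2 gave 4 cytosolic members (4.88%) lower at an adjusted p below 0.05 (Rpl10, Rpl9 and Rpl27 among them) and no mitochondrial one, against 3.32% of the genes for which it gave an adjusted p. limma-voom with quality weights gave 5 cytosolic members, 4 of them lower (4.88%, against 7.01% of all tested genes), and no mitochondrial one. In 3 cytosolic members, or 3.66%, every Tet2-KO mouse lay below every WT mouse, against 0.641% of all tested genes.

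These counts leaned on a few mice. Without WT mouse 2, 18 of 82 cytosolic members were lower at an unadjusted p below 0.05. The share of all tested genes that were lower in that fit was 7.92%. The cytosolic median log2 fold change was then -0.11, with 77 of 82 negative. Without WT mouse 1 the number was 24 of 82 members, against 10.7% of all tested genes. It was 21 of 82 without Tet2-KO mouse 1 (against 9.82%) and also 21 of 82 without Tet2-KO mouse 6 (against 9.66%). WT mouse 2 and Tet2-KO mouse 6 were also both left out, an alternative chosen after seeing the data. Then 10 of 82 cytosolic members were lower at that p, against 6.03% of all tested genes. In that fit 75 of 82 were negative and the cytosolic median was -0.074. The mitochondrial median in that fit was 0.0082. Without Tet2-KO mouse 5, 43 of 82 cytosolic members were lower at an unadjusted p below 0.05, against 14.6% of all tested genes. At an edgeR adjusted p below 0.05, 5 of 82 (6.1%) were lower, against 7.3% of all tested genes.

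**Figure D1:**
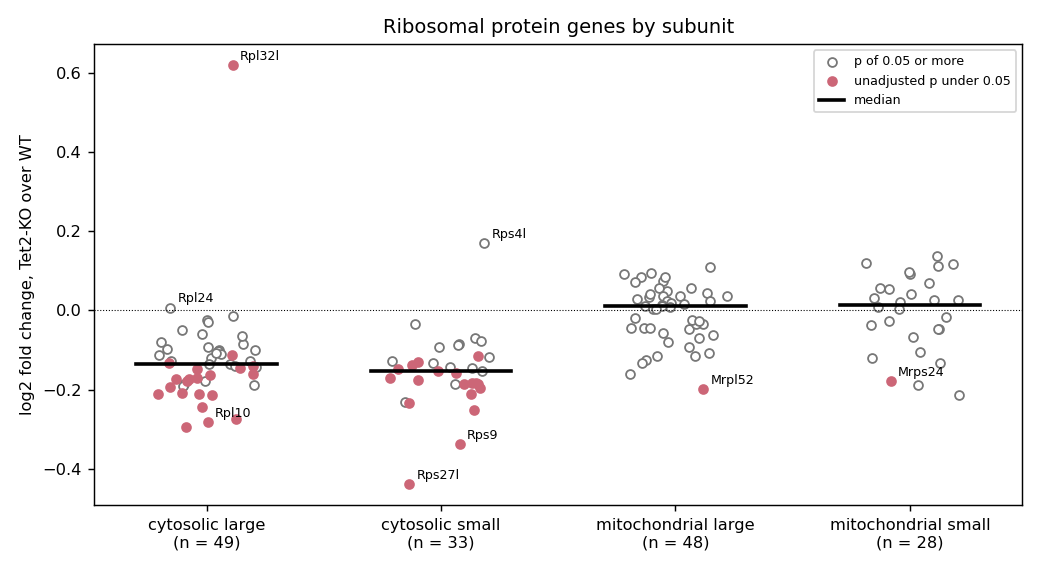
Log2 fold change, Tet2-KO over WT (vertical axis), of each of the 158 members in 4 columns by subunit; each point is a gene, filled where its unadjusted p was under 0.05, and black bars are medians. The cytosolic points lie almost all below 0, with 38 filled points below it and 1, Rpl32l, above, while the mitochondrial points lie on both sides of 0 with 2 filled.

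The cytosolic median was below 0 in both subunits. Of the 49 large-subunit members 47 were negative, with a median of -0.13 and 20 (40.8%) lower at an unadjusted p below 0.05. Of the 33 small-subunit members 32 were negative, with a median of -0.15 and 18 (54.5%) lower at that p. The share of all tested genes that were lower was 12.2%. The ratio of summed large-subunit to small-subunit CPM was 1.53 to 1.59 in WT and 1.55 to 1.59 in Tet2-KO brains. Of the mitochondrial members, the 48 of the large subunit had a median of 0.011 and the 28 of the small subunit 0.015. The 80 protein-coding cytosolic members had 79 negative values, and both members annotated as pseudogenes, Rpl32l and Rps4l, had positive ones.

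Summed over the 80 protein-coding cytosolic members, the WT brains held 6549 CPM at the lowest, 6882 at the median and 8097 at the highest. The Tet2-KO brains held 5756, 6631 and 6917. The groups overlapped: 2 Tet2-KO mice, 1 and 6, lay below the lowest WT mouse, and the highest WT value came from mouse 2. The means were 7105 ± 556 (SD, n = 6) and 6450 ± 448 (SD, n = 6), a ratio of 0.908, or 0.934 when WT mouse 2 was left out. The summed mitochondrial members ran from 1284 to 1362 CPM in WT and from 1258 to 1390 CPM in Tet2-KO brains, a ratio of means of 1.004. The cytosolic sum divided by the mitochondrial sum of the same mouse was 5.39 ± 0.41 (SD, n = 6) in WT and 4.88 ± 0.45 (SD, n = 6) in Tet2-KO brains, with overlap again. Each mouse's own total enters both sums, so this ratio does not depend on the scaling of the library.

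**Figure D2:**
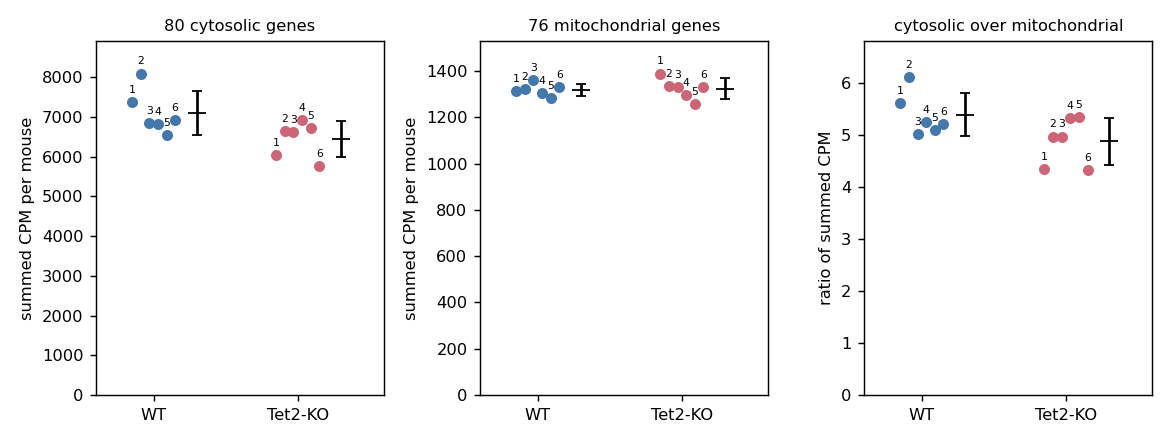
Summed CPM per mouse of the 80 protein-coding cytosolic members (left) and the 76 mitochondrial members (middle), and the ratio of the 2 sums (right), for 6 WT and 6 Tet2-KO mice; numbers are replicate numbers and bars show mean and SD. The cytosolic sums reach 8097 in WT mouse 2 and 5756 in Tet2-KO mouse 6, while all mitochondrial sums lie between 1258 and 1390.

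The levels of the cytosolic members varied together from mouse to mouse. WT mouse 2 had the highest level of all 12 mice for 67 of the 80 protein-coding cytosolic members, and Tet2-KO mouse 6 had the lowest for 57 and Tet2-KO mouse 1 for 17. Below the WT mean were 76 of the 80 in Tet2-KO mouse 1, 70 in mouse 2, 69 in mouse 3, 64 in mouse 4, 70 in mouse 5 and 79 in mouse 6. With WT mouse 2 left out of that mean the numbers were 77, 65, 62, 47, 57 and 77. Over the 12 mice, where the values of 1 mouse share its library, its scaling and its group, the median correlation between pairs of cytosolic members was 0.75, between pairs of mitochondrial members 0.094, and between a cytosolic and a mitochondrial member -0.0069. Within the 6 WT mice alone the cytosolic value was 0.74 and within the 6 Tet2-KO mice 0.69. Each of these groups holds a mouse that stood apart, WT mouse 2 or Tet2-KO mouse 6. The correlation without them was not computed.

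**Figure D3:**
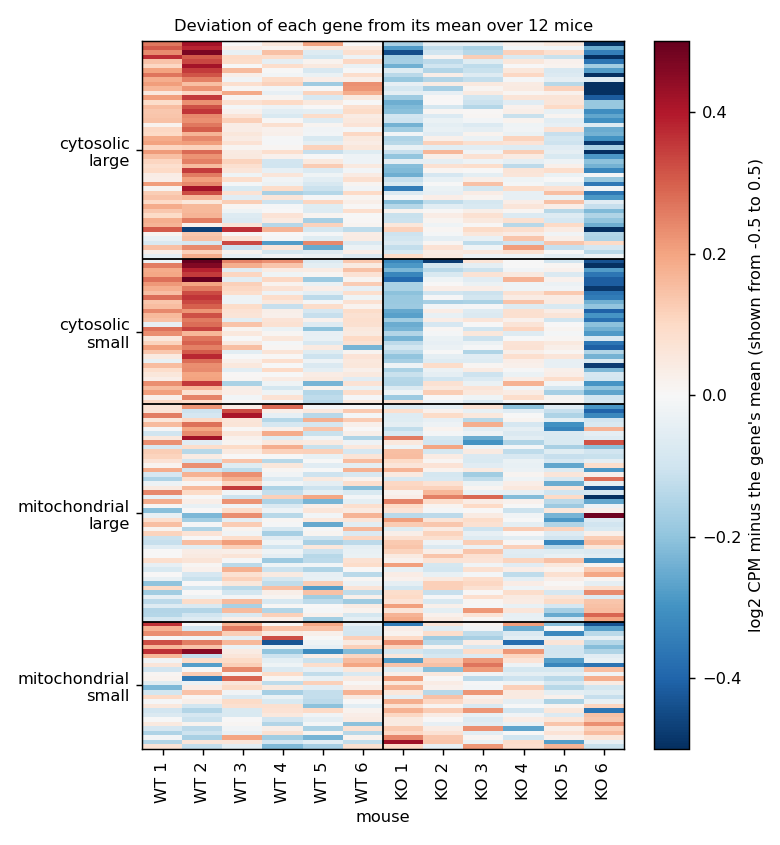
Log2 CPM of each of the 156 protein-coding members (rows, grouped by subunit and sorted by fold change) in each of the 12 mice (columns), as the deviation from the gene's mean over the mice, red above and blue below. The cytosolic rows form common stripes, red in WT mouse 2 and blue in Tet2-KO mice 1 and 6, and the mitochondrial rows show no such stripes.

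Among large-subunit members, Rpl10 (chrX:74270812-74273135, plus strand), which encodes a protein added late in assembly near the catalytic centre, had the smallest p-value. In WT brains it had 152.7 CPM at the lowest, 156 at the median and 196 at the highest, and in Tet2-KO brains 124, 137 and 149. Every Tet2-KO mouse lay below every WT mouse. The log2 fold change was -0.28 (SE 0.073), with an edgeR adjusted p of 0.111 and a DESeq2 adjusted p of 0.0251.

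Rpl9 (chr5:65388364-65391444, minus strand), a protein of the large subunit's stalk base, had 98.1, 103 and 106 CPM in WT and 87.2, 93.7 and 94.9 CPM in Tet2-KO brains as lowest, median and highest values. Here too the groups did not overlap, and the spread within each was narrow. The log2 fold change was -0.14 (SE 0.039), with an edgeR adjusted p of 0.116.

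Rpl27 had 40.4, 42.7 and 48.7 CPM in WT and 35.9, 38.4 and 40.7 CPM in Tet2-KO brains. Of the Tet2-KO mice 5 lay below the lowest WT mouse. The log2 fold change was -0.19 (SE 0.056), with an edgeR adjusted p of 0.121. Rpl5, which with Rpl11 and the 5S RNA forms a particle that can hold the p53 regulator Mdm2, was the only other member without overlap, at 96.0 to 114 CPM in WT and 80.7 to 93.6 CPM in Tet2-KO brains, and its log2 fold change was -0.16 (SE 0.052, edgeR adjusted p = 0.126). Its partner Rpl11 overlapped widely, at 28.3 to 39.8 and 24.8 to 35.2 CPM, with a log2 fold change of -0.11 (SE 0.091). With WT mouse 2 and Tet2-KO mouse 6 left out, the Rpl11 value was 0.0047.

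The stalk proteins, which recruit elongation factors to the large subunit, differed among themselves in size. Rplp0 had 152 to 220 CPM in WT and 117 to 172 CPM in Tet2-KO brains, with a log2 fold change of -0.28 (SE 0.11). Rplp2 had 42.6 to 57.5 and 33.8 to 47.2 CPM, with -0.18 (SE 0.088). Rplp1, the member with the highest level per kb of exon (304 CPM per kb), had 127 to 178 and 139 to 175 CPM, with -0.024 (SE 0.080), and its sign turned under limma-voom and upper quartile scaling.

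Rpl24 (chr16:55966275-55971435, plus strand), named here after its values were seen, was the 1 protein-coding cytosolic member with a positive log2 fold change, 0.0072 (SE 0.055). It had 31.0, 31.8 and 37.1 CPM in WT and 31.5, 32.1 and 35.0 CPM in Tet2-KO brains as lowest, median and highest values, so the groups lay within each other. Rpl3, the most abundant cytosolic member per library at 230 CPM in WT and 228 CPM in Tet2-KO brains on average, was also close to 0 at -0.013 (SE 0.051), with a positive sign under limma-voom and upper quartile scaling.

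Among small-subunit members, Rps9 (chr7:3703993-3706897, plus strand), which helps set decoding accuracy, had 66.4, 76.9 and 94.7 CPM in WT and 44.6, 65.6 and 69.3 CPM in Tet2-KO brains as lowest, median and highest values. The lowest value was that of mouse 6, and 3 Tet2-KO mice lay below the lowest WT mouse. The log2 fold change was -0.34 (SE 0.11), with an edgeR adjusted p of 0.126, and it was -0.26 without Tet2-KO mouse 6.

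Members with well-known roles of their own lay within the same range. Rpsa, which also serves as a laminin receptor, had 195 to 252 CPM in WT and 183 to 208 CPM in Tet2-KO brains, with a log2 fold change of -0.14 (SE 0.065). Rps6, the substrate of the S6 kinases downstream of mTOR complex 1, had 92.9 to 111 and 87.5 to 103 CPM, with -0.093 (SE 0.052). Rps19, mutated in Diamond-Blackfan anemia, had 64.0 to 83.0 and 52.7 to 71.0 CPM, with -0.15 (SE 0.074). Rps29 had the highest level per kb in the small subunit (145 CPM per kb) and a log2 fold change of -0.087 (SE 0.10), which was 0.028 without WT mouse 2 and Tet2-KO mouse 6.

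**Figure D4:**
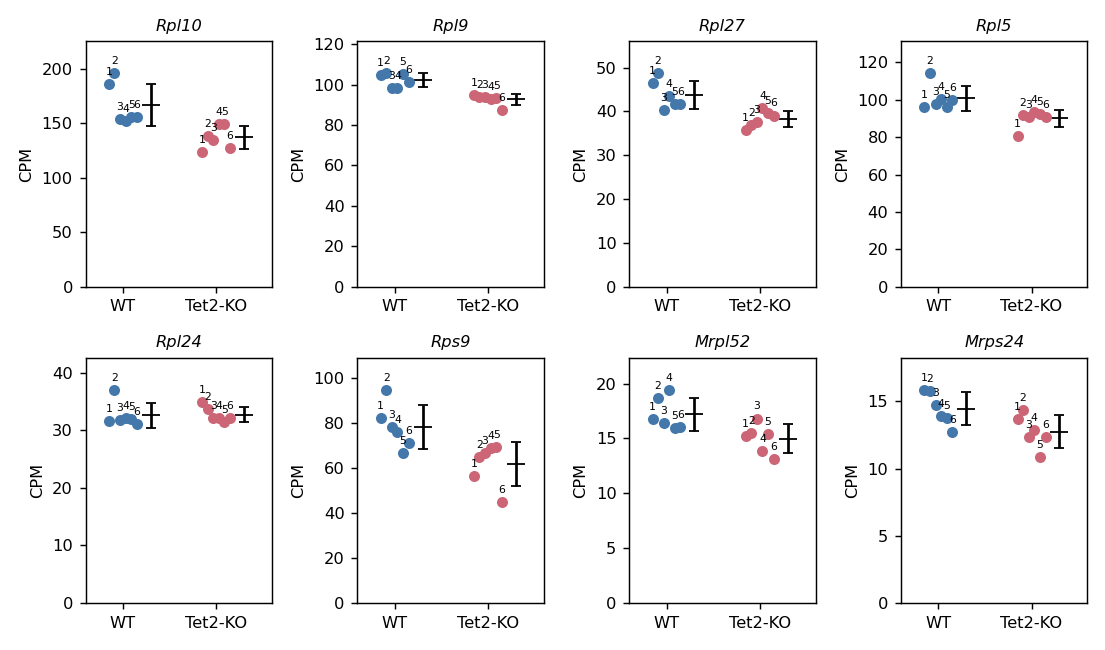
CPM (vertical axis, from 0) of 8 members in each of the 6 WT and 6 Tet2-KO mice; numbers are replicate numbers and bars show mean and SD. Rpl10, Rpl9 and Rpl5 are the 3 members whose groups do not overlap, and Rpl24 is level between the groups.

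Many of these values were smaller without the mice that stood apart. With WT mouse 2 and Tet2-KO mouse 6 left out, 21 of 25 protein-coding cytosolic members chosen by the naming rule kept a negative log2 fold change, and 22 of the 25 were smaller in size than with all mice. Rpl10 was then -0.21, Rpl9 -0.11, Rpl27 -0.17, Rpl5 -0.12 and Rps9 -0.20. Rplp0 was -0.16, Rplp2 -0.065, Rpsa -0.070, Rps6 -0.051 and Rps19 -0.046.

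Paralogue-type members, copies of ribosomal protein genes with their own symbols, did not share 1 direction. Rps27l, a p53-responsive relative of Rps27 and the lowest small-subunit member per kb (6.55 CPM per kb), had 4.95 to 8.82 CPM in WT and 3.74 to 5.45 CPM in Tet2-KO brains, with a log2 fold change of -0.44 (SE 0.15, edgeR adjusted p = 0.132), while Rps27 had -0.18 (SE 0.079). The highest Rps27l value was that of WT mouse 2, and without it the log2 fold change was -0.31. Rpl22l1 had -0.030 (SE 0.10) beside -0.13 (SE 0.067) for Rpl22, and its sign turned under upper quartile scaling. Rpl7l1 had -0.10 (SE 0.064) beside -0.17 (SE 0.069) for Rpl7. With both mice left out Rps27l was -0.27, Rps27 -0.087, Rpl22l1 -0.072, Rpl22 -0.076, Rpl7l1 -0.039, Rpl7 -0.10, Rpl32 -0.017 and Rps4x -0.087.

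The pair annotated as processed pseudogenes ran the other way. Rpl32l (chr10:20208490-20208888), with 12 to 40 counts per library, had 0.778, 1.18 and 1.40 CPM in WT and 1.12, 1.66 and 2.69 CPM in Tet2-KO brains. Its groups overlapped, and its log2 fold change was 0.62 (SE 0.23, edgeR adjusted p = 0.146), beside -0.13 (SE 0.082) for Rpl32. Rps4l had 0.17 (SE 0.13) beside -0.19 (SE 0.082) for Rps4x. Reads that match such a copy and its parent gene equally well are dropped when reads that map to 1 place alone are counted, so the levels of these genes are uncertain. At least 1 annotated -ps copy existed for 60 of the 82 cytosolic and 3 of the 76 mitochondrial members, up to 23 for Rps12. Of 285 such copies 36 could be tested, with a median log2 fold change of -0.058. Of these 1 (2.78%) was lower at an unadjusted p below 0.05, against 12.2% of all tested genes.

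Of the mitochondrial members, Mrpl52 and Mrps24 were the 2 with an unadjusted p below 0.05. Mrpl52 (chr14:54426909-54429756, plus strand) had 15.9, 16.6 and 19.4 CPM in WT and 13.1, 15.3 and 16.8 CPM in Tet2-KO brains as lowest, median and highest values. Of the Tet2-KO mice 5 lay below the lowest WT mouse, and mouse 3 lay within the WT range. The log2 fold change was -0.20 (SE 0.077, edgeR adjusted p = 0.155). Mrps24 (chr11:5703983-5715680, minus strand) had 12.7, 14.3 and 15.9 CPM in WT and 10.8, 12.6 and 14.4 CPM in Tet2-KO brains, with wide overlap and a log2 fold change of -0.18 (SE 0.081, edgeR adjusted p = 0.203).

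The remaining mitochondrial members spanned log2 fold changes from -0.21 to 0.14. Mrpl12, which also binds the mitochondrial RNA polymerase, had 19.5 to 25.8 CPM in WT and 20.9 to 25.5 CPM in Tet2-KO brains, with 0.014 (SE 0.076). Mrps12, of the decoding region, had 8.54 to 11.8 and 8.001 to 12.4 CPM, with -0.036 (SE 0.12). Per kb of exon the highest large-subunit member was Mrpl41 (24.5 CPM per kb, log2 fold change 0.094, SE 0.082) and the lowest Mrpl32 (1.81, 0.024, SE 0.10). In the small subunit these were Mrps21 (19.95 CPM per kb, -0.13, SE 0.078) and Mrps30 (1.61, 0.092, SE 0.078).

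Levels per kb differed between the ribosomes at the median, but their ranges overlapped. Protein-coding cytosolic members ran from 4.98 to 304 CPM per kb and mitochondrial members from 1.61 to 24.5. The median cytosolic member had 40.7 CPM per kb and the median mitochondrial one 6.49, with exon length taken as the union of all annotated exons, which understates the level of genes with long, rarely used exons. The members were spread over 19 chromosomes for the cytosolic set, with 14 on chromosome 7, and over 17 for the mitochondrial set, with 11 on chromosome 11.

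The cytosolic members were also set beside other genes of like level and length. Across other protein-coding genes the median log2 fold change went up with level, from -0.087 below a log2 CPM of 2 to 0.10 at 7 or more, and cytosolic members lay below them in each range that held at least 3 members: at 6 to 7, for example, 34 members had a median of -0.14 and 1992 other genes 0.045. In the 5-to-6 range 23 cytosolic members had -0.18, 4 mitochondrial members 0.052 and 2668 other genes 0.0086. Among genes with under 2 kb of exon and a log2 CPM of 5 or more, 242 other protein-coding genes had a median of 0.037 and the 38 cytosolic members -0.15.

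**Figure D5:**
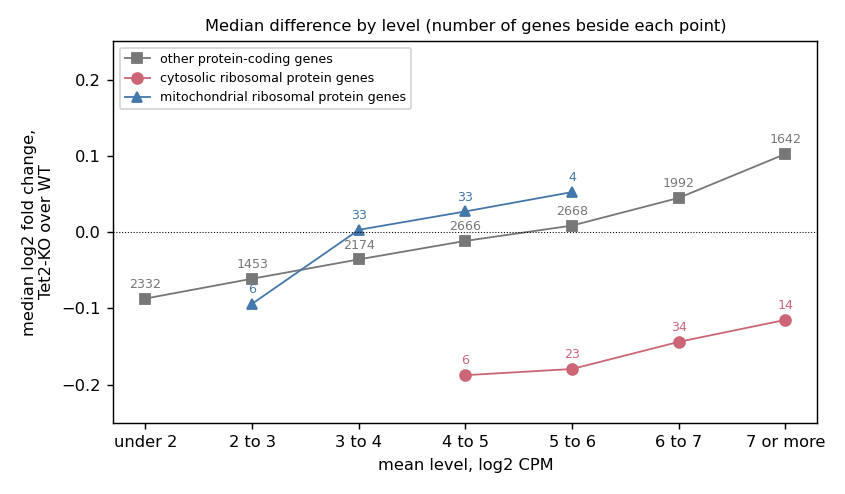
Median log2 fold change, Tet2-KO over WT (vertical axis), in ranges of mean level in log2 CPM (horizontal axis), for other protein-coding genes (squares), cytosolic members (circles) and mitochondrial members (triangles), with the number of genes beside each point and points of under 3 genes left out. The cytosolic medians lie below those of other genes in all 4 ranges shown, from -0.19 at 4 to 5 to -0.12 at 7 or more, and the mitochondrial ones run from -0.094 to 0.052.

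The other genes of the translation machinery, from lists drawn up with earlier results known, are given by count, to be read against the 12.2% of all tested genes that were lower and the 10.8% that were higher at an unadjusted p below 0.05. Of the 4 cytosolic subunit genes whose symbols the rule missed, all 4 were negative, with a median of -0.22 and 3 lower at an unadjusted p below 0.05. Rpl36al, a paralogue of Rpl36a, had 12.9 to 15.5 CPM in WT and 11.3 to 12.2 CPM in Tet2-KO brains without overlap (log2 fold change -0.24, SE 0.067), and Fau, which encodes Rps30 fused to a ubiquitin-like protein, had 117 to 161 and 102 to 129 CPM (-0.22, SE 0.076). Of the 6 mitochondrial subunit genes outside the rule 3 were negative, with a median of -0.0085 and none past that p. Chchd1 had -0.18 (SE 0.10) and Mrps18c -0.17 (SE 0.11).

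Of 16 other TOP mRNAs, a list that shares members such as Fau and Rack1 with the subunit genes above, 14 were negative, with a median of -0.097 and 4 lower at an unadjusted p below 0.05. Tpt1, a classic TOP mRNA for a growth-related tumor protein, had 186 to 268 CPM in WT and 144 to 193 CPM in Tet2-KO brains (log2 fold change -0.29, SE 0.10), and its highest value was that of WT mouse 2. With WT mouse 2 and Tet2-KO mouse 6 left out, the value was -0.16 for Tpt1 and -0.12 for Fau, and the median of the 4 subunit genes was -0.12. Of 10 elongation and release factors 6 were negative, with a median of -0.060, 2 lower and 1 higher at that p. The higher one was Eef1a2, the elongation factor form of neurons and muscle, at 488 to 651 CPM in WT and 550.0 to 791 CPM in Tet2-KO brains (0.21, SE 0.085), and Etf1, which ends translation at stop codons, was among the lower (-0.096, SE 0.043).

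Ribosome assembly and initiation genes had members on both sides of 0. Of 51 ribosome biogenesis genes 27 were negative and 24 positive, with a median of -0.0068. At an unadjusted p below 0.05, 5 were lower and 2 higher, so that the share of lower genes was below that of all tested genes. The smallest p-values belonged to the nucleolar proteins Mphosph10 (-0.29, SE 0.088) and Ddx21 (-0.27, SE 0.086). Of 34 initiation factors 19 were negative, with a median of -0.0081, 3 lower and 1 higher at that p, with Eif2s2 at -0.18 (SE 0.053, DESeq2 adjusted p = 0.048) and Eif4a1 at -0.16 (SE 0.054). Of 14 genes of mTOR complex 1 and its translation targets 6 were negative, with a median of 0.0054, 2 lower and 2 higher. Myc, a driver of ribosome production, had 7.42 to 14.5 CPM in WT and 4.39 to 9.21 CPM in Tet2-KO brains (-0.56, SE 0.19, edgeR adjusted p = 0.135), and Tsc1, a brake on the complex, had 0.11 (SE 0.042). With both mice left out Myc was -0.33, Ddx21 -0.17 and Eif4a1 -0.10, and the medians of the biogenesis and initiation lists were 0.0039 and 0.017.

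On the mitochondrial side, 13 of 27 translation and ribosome assembly factors were negative, with a median of 0.0054, 2 lower, among them Mpv17l2 (-0.19, SE 0.073), and 1 higher, Tfb1m (0.24, SE 0.10), at an unadjusted p below 0.05. Of the 13 mRNAs encoded in mitochondrial DNA 2 were negative, with a median of 0.14 and none past that p. Their levels were uneven, from 10213 to 16876 CPM over the mice for mt-Co1 to 0.752 to 2.31 CPM for mt-Atp8. The values of mt-Co2, mt-Co3, mt-Atp6 and mt-Nd4l all lay between 3.16 and 8.85 CPM. Among these low ones were mt-Co2 and mt-Atp8, with ratios of group means, Tet2-KO over WT, of 0.961 and 0.960. Only reads that mapped to 1 place were counted, so these low values may understate the mRNA levels. Whether reads were lost in this way was not tested. The median of the 13 includes these genes. mt-Nd4 had 0.17 (SE 0.090) and mt-Cytb 0.14 (SE 0.079). Without Tet2-KO mouse 6 the median of the 13 was 0.052, mt-Nd4 was 0.084 and mt-Cytb 0.074. The mitochondrial ribosomal RNAs were not analysed here.

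Marker genes of several cell types differed between the groups in the same fit. All 6 markers of infiltrating myeloid cells were lower at an unadjusted p below 0.05, with a median log2 fold change of -1.87, and the adjusted p was 0.0364 for both S100a8 and S100a9. Their summed level was 369 to 969 CPM in WT and 33.4 to 476 CPM in Tet2-KO brains. All 4 fibroblast markers (median -1.36, 371 to 914 and 65.4 to 481 CPM), Dcn and Col1a1 among them, and the 4 T cell markers that could be tested (median -0.93, 9.10 to 15.3 and 5.44 to 9.67 CPM) were lower at that p as well, as was Cd79b (-1.28), the 1 of 4 B cell markers that could be tested. None of these defining markers was at 0 over the libraries.

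Among resident cells, 6 of 8 neuronal markers were higher at an unadjusted p below 0.05, with a median of 0.22 and sums of 2877 to 4166 CPM in WT and 3711 to 5113 CPM in Tet2-KO brains. Of 6 microglial markers 5 were negative, with a median of -0.25 (783 to 1378 and 365 to 992 CPM), 4 of 6 astrocyte markers, with -0.12 (5842 to 6883 and 5644 to 7036 CPM), all 4 endothelial markers, with -0.27 (160 to 200.1 and 145 to 176 CPM) and all 4 choroid plexus markers, with -0.26 (496 to 653 and 399 to 685 CPM). Of 5 oligodendrocyte markers 3 were negative, with -0.0062 (4201 to 5473 and 3725 to 5369 CPM). At that p 2 endothelial and 1 choroid plexus markers were lower, 1 astrocyte marker was higher, and no microglial or oligodendrocyte marker passed. Of 5 erythroid genes, which are not of resident cells, none was negative and 3 were higher at that p. Their median was 0.54 (21.2 to 31.5 and 27.4 to 41.2 CPM). Without WT mouse 2 the microglial median was -0.13 and the astrocyte median -0.035, and with Tet2-KO mouse 6 left out as well they were -0.081 and 0.030. The oligodendrocyte median was 0.043 without WT mouse 2 and 0.034 without Tet2-KO mouse 6, and the endothelial one -0.17 without both. The mean astrocyte sum was slightly higher in Tet2-KO, with a ratio of 1.012.

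Some of these levels can be set beside the cytosolic sums mouse by mouse. WT mouse 2, with the highest cytosolic sum, had the lowest neuronal and the highest myeloid, microglial and fibroblast sums of the 12 mice. Tet2-KO mouse 1, with the second lowest cytosolic sum, had the highest neuronal sum and the lowest myeloid, microglial and fibroblast sums. Tet2-KO mouse 6, with the lowest cytosolic sum, had the second lowest myeloid (76.9 CPM) and fibroblast (100.3 CPM) sums. In Tet2-KO mouse 5 the myeloid sum of 476 CPM and the cytosolic sum of 6720 CPM both lay within the WT range. Other mice did not rank alike. WT mouse 5 had a cytosolic sum of 6549 CPM with a myeloid sum of 493 CPM and a fibroblast sum of 463 CPM. Tet2-KO mice 2 and 3 had higher cytosolic sums (6644 and 6618 CPM) with lower myeloid (109 and 111 CPM) and fibroblast sums (145 and 153 CPM). The part of cell composition in the cytosolic difference was not tested.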

How the data were processed

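RNA was measured by bulk RNA-sequencing of brains from 6 WT and 6 Tet2-KO mice. Per the labels and the study's methods, the authors depleted ribosomal RNA, trimmed paired reads with Trimmomatic 0.36, aligned them to mm10 with STAR 2.5.2b and deposited raw counts of unique reads in exons per gene, made with featureCounts of Subread 1.5.2. The annotation release and strand setting are not given in the sources used here. Genes without a symbol held 0.0842% of counts and stayed in. Groups follow sample titles and genotypes, although the treatment label names control cells in every sample. Totals of 12000261 to 21049763 counts per library limit the precision of genes of few counts, such as Rpl32l.

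Counts were scaled by TMM, filtered with filterByExpr and tested with edgeR 4.0.16 (quasi-likelihood, robust, R 4.3.3), with Benjamini-Hochberg adjustment over all 20290 genes. The SE is the absolute log2 fold change over the square root of F. CPM are TMM-scaled. DESeq2 1.42.0, limma 3.58.1 (voom), other scalings and filters, a replicate block and each library left out were alternatives. The edgeR fit reported, DESeq2 and limma-voom were tested on simulated data, and the other alternatives were not. Exon lengths and positions are those of GENCODE M21 (mm10). No pair of libraries within a group agreed within sampling noise (chi-square), and pairs across groups were not compared. Cages mostly mixed both groups, no batch per library is given, and p-values set the group difference against the spread between these mice.

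Members and lists were chosen with earlier results of these data known. Genes named are members past an adjusted p of 0.05 (none), the 3 smallest p-values below 0.05 per subunit and direction, the highest and lowest members per kb in each subunit, paralogue-type members with their parents, members with textbook roles, up to 2 genes of smallest p per other list, and Tet2. A few genes the rule names are not reported here. Rpl24 was named, and the sequences shown were chosen, after values were seen.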

Additional observations from a re-analysis of the deposited data

Results flagged for a closer look

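Of 196 groups of 6 mice checked, 25 held a value whose gap to its nearest neighbour was a larger share of the group's range than Dixon's 95% critical value, which chance alone exceeds in about 1 of 20 groups. WT mouse 2 gave 17 of them. Among members it was high for Rps27l (8.82 CPM), Rpl32 (82.6 CPM), Rpl6 (189 CPM) and Rpl5 (114 CPM). Among other genes and lists it was high for the summed other TOP mRNAs (5448 CPM), Myc (14.5 CPM), the summed markers of astrocytes (6883 CPM), microglia (1378 CPM), T cells (15.3 CPM) and oligodendrocytes (5473 CPM), and for Csf1r (391 CPM), Mog (63.6 CPM) and Dcn (175 CPM). It was low for summed neuronal markers (2877 CPM), Rbfox3 (126 CPM), Slc1a2 (3687 CPM) and Tsc1 (113 CPM).

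Tet2-KO mouse 6 was low for Rpl9 (87.2 CPM) and Rpl7l1 (19.5 CPM), and high for the summed mitochondrially encoded mRNAs (48350 CPM) and mt-Nd4 (3813 CPM). Tet2-KO mouse 1 was low for Rpl5 (80.7 CPM), Tet2-KO mouse 4 high for summed choroid plexus markers (685 CPM), Tet2-KO mouse 5 low for Slc1a2 (4016 CPM) and WT mouse 5 high for Tet2 (147 CPM).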

How the results depend on the processing

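The median log2 fold change moved by less than the spread between mice in every alternative run. That spread was the SD of single mice within their group, a wide bar for a difference between groups. When 1 library was left out the median ran from -0.17 to -0.11 for the cytosolic members and from -0.0059 to 0.028 for the mitochondrial ones. In the other alternatives it ran from -0.15 to -0.074 and from 0.0053 to 0.044, against -0.14 and 0.011 in the fit reported. The -0.074 came with WT mouse 2 and Tet2-KO mouse 6 left out. The count of cytosolic members with an unadjusted p below 0.05 in either direction was 39 in the fit reported and 25 under upper quartile scaling. It was 11 with WT mouse 2 and Tet2-KO mouse 6 left out, and 19 to 50 with 1 library left out. Of the 39, 38 were lower, against 12.2% of all tested genes. Under upper quartile scaling 24 were lower, against 10.5%, and with both mice left out 10, against 6.03%. In each of these fits 1 was higher, against 2201 of 20290, 3009 of 20290 and 1217 of 20538 tested genes. The mitochondrial count, 2, was 1 under DESeq2, without a filter and with both mice left out, 3 under limma-voom, upper quartile scaling and at least 10 counts in every library, and 1 to 3 with 1 library left out. Genes past an adjusted p of 0.05, 5 in edgeR, were 898 in DESeq2, 2013 in limma-voom, 44 without a filter, 0 with at least 10 counts in every library, 0 with both mice left out, and 0 to 2257 with 1 library left out, the last without Tet2-KO mouse 5. Upper quartile scaling turned the split of genes at an unadjusted p below 0.05 from 2477 lower and 2201 higher to 2129 and 3009. The cause was not tested.

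With the replicate number as a block the cytosolic count stayed at 39, the mitochondrial at 2, and genes past an adjusted p of 0.05 numbered 0. The numbers did not pair the mice: deviations of same-numbered mice correlated between -0.17 and 0.23, and of the 6 numbers 1 correlated best with its own.

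Signs turned in genes close to 0. Under limma-voom Rplp1 was 0.025 and Rpl3 0.019, and under upper quartile scaling Rplp1 was 0.011, Rpl22l1 0.0021, Rpl3 0.020 and Tet2 0.022. With WT mouse 2 and Tet2-KO mouse 6 left out Rplp1 was 0.040, Rps29 0.028, Rpl3 0.034 and Rpl11 0.0047. With 1 library left out the values ran from -0.074 to 0.024 for Rplp1, -0.0049 to 0.081 for Mrpl32, -0.085 to 0.041 for Rpl22l1, -0.034 to 0.012 for Rpl3, -0.095 to 0.025 for Mrps12, -0.030 to 0.047 for Mrpl12 and -0.027 to 0.024 for Tet2.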
